A study of Sminthopsis crassicaudata with 9 samples.

Results

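The genes described here are the matrix proteases and their inhibitors of the fat-tailed dunnart (Sminthopsis crassicaudata), a small marsupial, read in the face of the newborn. They are the gene models of the count table whose symbol is MMP, ADAM, ADAMTS, ADAMTSL or TIMP followed by a number, which gives 51 of 21703 genes: 17 MMP, 10 ADAM, 16 ADAMTS, 5 ADAMTSL and 3 TIMP genes. The rule uses symbols and no measured value, though the family was picked with earlier results of these data known. Family genes without a matching row, MMP14 and TIMP1 among them, were not analysed here.

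All samples were facial prominences (fronto-nasal, maxillary and mandibular) of pouch young on the day of birth, without tongue, neural tube or eye primordia. RNA was sequenced in 3 libraries, FP1, FP2 and FP3, each a pool of 2 young. H3K4me3 is a histone mark found where transcription starts, and H3K27ac is found at working promoters and enhancers alike. Both were mapped by ChIP-seq in the same 2 pools of young under 24 hours old. With a single tissue and age there are no groups to compare, and the values are set beside those of all genes. All 5 markers of facial mesenchyme on the list (PRRX1, TWIST1, MSX1, ALX4 and COL1A1) were over 1 TPM in all libraries. So were all listed markers of epithelium, endothelium, skeletal muscle, neurons and osteoblasts that had a row, and 75.3% of all genes with a symbol. The tissue is mixed, and in such bulk samples fewer cells of a type and less RNA per cell cannot be told apart.

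MMPs are zinc proteases that cut collagens and other matrix proteins, and most are secreted as inactive proenzymes. ADAMs are mostly membrane proteases that release growth factors and receptors from the cell surface, whereas ADAMTS enzymes are secreted and act on proteoglycans, procollagens and microfibrils. ADAMTSL proteins share the matrix-binding part of ADAMTS enzymes but have no protease domain, and TIMPs are the secreted inhibitors that sit in the active site of the metalloproteases. In mammals these genes take part in cartilage and bone growth, palate closure, vessel growth and tooth formation.

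The libraries held between 16096971 and 17419099 counts, and transcript levels are given as TPM, that is counts per base of exon scaled to a sum of 1000000 in each library. Of the 51 genes, 41 were over 1 TPM in all 3 libraries, where 56.5% of all genes were, and 17 were over 10 TPM in all 3, where 35.2% of all genes were. Genes without a symbol lower both of these backgrounds: among the 14158 genes with a symbol and counts, 75.3% were over 1 TPM and 49.3% over 10 TPM. The shares in the 51 genes were 80.4% and 33.3%. The median level of those over 1 TPM was 9.12 TPM for the 41 genes and 20.6 TPM for all 12250 genes.

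**Figure D1:**
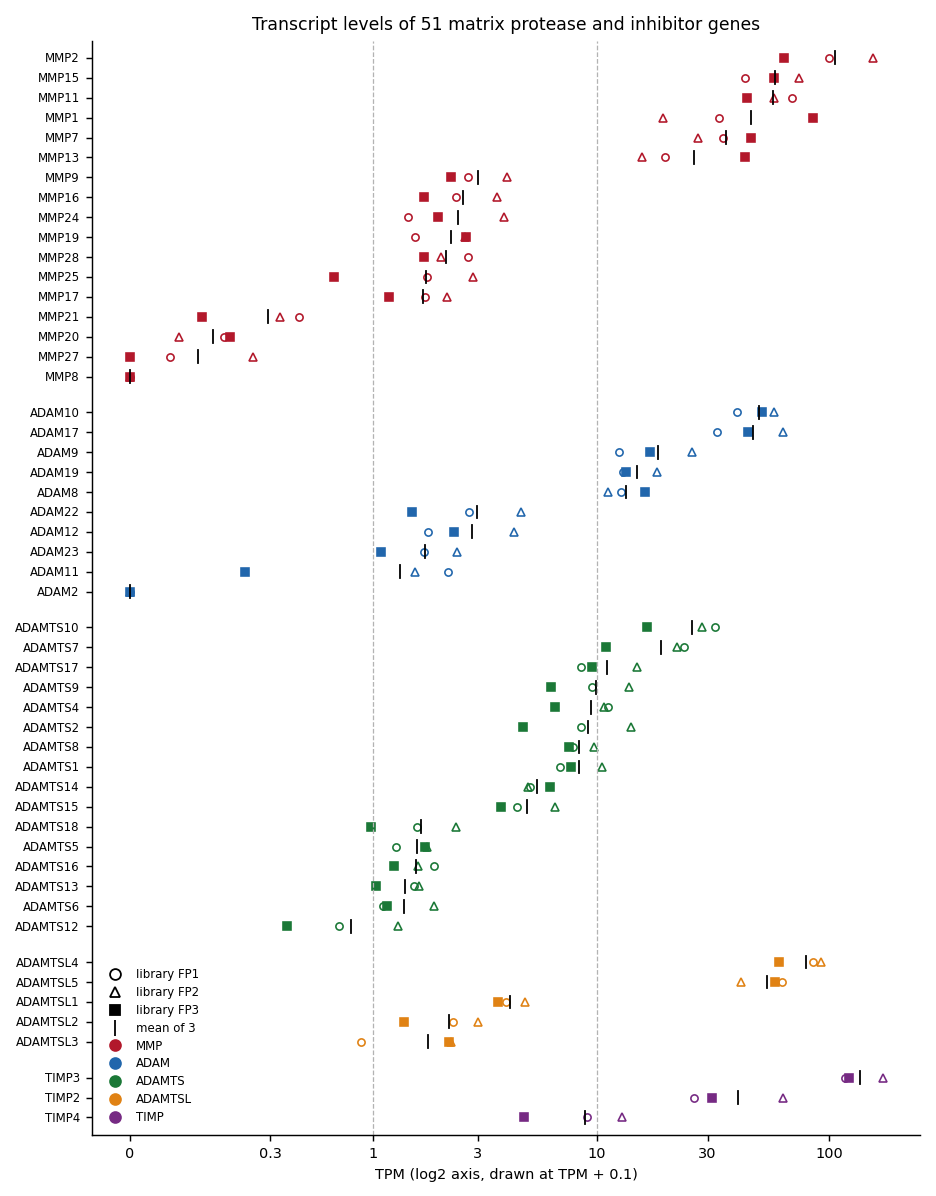
Transcript levels of the 51 genes, by family and ordered by mean within a family. The x axis gives TPM on a log2 axis after adding 0.1, the symbols are the 3 libraries, the black bars are the means of 3, and the dashed lines stand at 1 and 10 TPM. TIMP3 and MMP2 have the highest means, MMP8 and ADAM2 lie at 0, and MMP1 spreads from 19.4 to 85.3 TPM.

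Of the inhibitors, TIMP3 was the gene of highest mean level among all 51. It binds the matrix and, in addition to MMPs, inhibits ADAM17 and proteoglycan-cleaving ADAMTS enzymes. TIMP3 had 117, 170 and 121 TPM in FP1, FP2 and FP3, a mean of 136 ± 29.2 TPM (SD, n = 3). TIMP2, which also takes part in activating pro-MMP2, had 26.3, 63.4 and 31.5 TPM, with FP2 more than the other libraries combined. TIMP4, the inhibitor with the narrowest expression in mammals, had 9.02, 12.9 and 4.78 TPM. The 3 TIMPs therefore kept their order in each library, and no library of one overlapped with those of the next.

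Among the gelatinases, MMP2 had 99.9, 154 and 64.1 TPM (mean 106 ± 45.5 TPM, SD, n = 3), and MMP9 had 2.71, 4.04 and 2.29 TPM. MMP2 is typically made by mesenchymal cells, MMP9 by osteoclasts and leukocytes. The lowest MMP2 library was well above the highest MMP9 library. The membrane-type enzyme MMP15 had 43.3, 74.4 and 57.9 TPM, and MMP11, which furin activates inside the cell, had 68.9, 58.1 and 44.1 TPM. The other membrane-type genes, MMP16, MMP24, MMP25 and MMP17, had mean levels between 1.71 and 2.59 TPM, and MMP25 fell below 1 TPM in FP3.

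The collagenases that cut fibrillar collagen were unequal. MMP1 had 33.5, 19.4 and 85.3 TPM in FP1, FP2 and FP3, MMP13, the collagenase of cartilage and bone, had 19.7, 15.7 and 43.6 TPM, and MMP8, the neutrophil collagenase, had 0 counts in all 3 libraries. A count of 0 allows up to 3 counts, here up to 0.155 TPM in the library where that limit is highest. Matrilysin (MMP7), an enzyme of epithelia in mammals, had 34.9, 27.2 and 46.0 TPM. MMP20, the enamel protease, had 3, 1 and 3 counts, MMP27 had 1, 4 and 0 counts and MMP21 had 14, 9 and 3 counts. Thus MMP1, MMP13 and MMP7 were each highest in FP3 and lowest in FP2, while the remaining MMPs of their neighbourhood were at or near 0.

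Of the ADAMs, the main sheddases ADAM10 and ADAM17 had the highest levels. ADAM10, which cuts Notch and cadherins, had 40.3, 58.1 and 51.4 TPM, and ADAM17, which releases TNF and EGF receptor ligands, had 33.0, 63.4 and 44.7 TPM. ADAM9, a widely expressed sheddase, had 12.5, 25.8 and 16.9 TPM, ADAM19, which processes neuregulin, had 13.0, 18.1 and 13.4 TPM, and ADAM8, known from leukocytes and osteoclasts, had 12.6, 11.2 and 16.2 TPM. These 5 were the ADAMs over 10 TPM in every library. ADAM12, a protease of muscle and mesenchyme, averaged 2.83 ± 1.33 TPM (SD, n = 3). The ADAMs without a working active site were below those 5 but not all below ADAM12. ADAM22 had 2.74, 4.66 and 1.53 TPM, a mean of 2.98 TPM. ADAM23 averaged 1.75 TPM, ADAM11 had 2.2, 1.58 and 0.21 TPM, and ADAM2, a sperm surface protein, had 0 counts in every library.

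The ADAMTS genes held a narrower range than the MMPs, with single libraries from 0.37 to 32.3 TPM against 0 to 154 TPM. In all libraries 14 of 16 were over 1 TPM, but only ADAMTS10 and ADAMTS7 were over 10 TPM. Among genes with a symbol these shares were 75.3% and 49.3%. ADAMTS10, which binds fibrillin, had 32.3, 28.4 and 16.4 TPM, and ADAMTS7, which cuts the cartilage protein COMP, had 23.8, 22.1 and 10.9 TPM. Both were lowest in FP3. ADAMTS17, mutated in a human short-stature syndrome, had 8.55, 14.9 and 9.47 TPM.

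The 6 proteoglycanases of the list, the enzymes that cut aggrecan and versican, were all over 1 TPM in every library and none was over 10 TPM in all 3. ADAMTS9 had 9.47, 13.8 and 6.32 TPM, ADAMTS4 had 11.1, 10.7 and 6.57 TPM, and ADAMTS8 had 7.83, 9.68 and 7.58 TPM. ADAMTS1 and ADAMTS15 averaged 8.36 and 4.95 TPM, and ADAMTS5, the main aggrecan-cleaving enzyme of mouse cartilage, averaged 1.60 ± 0.28 TPM (SD, n = 3). The highest ADAMTS5 library, at 1.78 TPM, was below the lowest library of each of the other 5.

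Of the procollagen N-proteinases, which trim the amino end of fibrillar procollagens, ADAMTS2 had 8.50, 14.1 and 4.78 TPM and ADAMTS14 had 5.12, 5.02 and 6.23 TPM. The libraries of ADAMTS2 differed 2.9-fold from highest to lowest, those of ADAMTS14 by 1.2-fold. The remaining ADAMTS genes, ADAMTS18, ADAMTS16, ADAMTS13, ADAMTS6 and ADAMTS12, had means between 0.79 and 1.67 TPM.

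Among the ADAMTS-like genes, ADAMTSL4, a fibrillin-binding protein needed for the zonule of the lens in humans, had 85.4, 92.6 and 60.8 TPM, and ADAMTSL5 had 62.4, 41.8 and 58.7 TPM. ADAMTSL1 had 4.00, 4.88 and 3.69 TPM, ADAMTSL2 averaged 2.25 TPM and ADAMTSL3 had 0.88, 2.28 and 2.24 TPM. ADAMTSL4 and ADAMTSL5 were thus each above all 16 ADAMTS enzymes in every library.

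In the order of mean levels the libraries of nearly all neighbours overlapped. Of the 50 steps from a gene to the next, ADAMTS1 above ADAMTS14 was the single step without overlap of the libraries.

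Peaks were kept at q under 0.05 and counted as reproducible where peaks of pools 1 and 2 overlapped over no less than 50% of one of them, taken with the interval of pool 1. A mark was counted at the transcription start site (TSS) where a reproducible peak came within 1 kb of the annotated gene start, and its strength is the fold enrichment over input in each pool. H3K4me3 was at the TSS of 41 of the 51 genes, where 67.7% of all genes carried it, and H3K27ac at 43, where 71.5% did. Both marks stood at 41, where 66.3% of all genes had both, so every gene with H3K4me3 also had H3K27ac. Among genes with a symbol, 83.1% had H3K4me3 and 85.9% H3K27ac at the TSS, close to the shares of 80.4% and 84.3% in the 51 genes. The peaks were weaker than those of all genes, with a median H3K4me3 enrichment of 33.7-fold in the 41 marked genes and 43.4-fold in all 14691 marked genes, and 28 of the 41 were under 43.4-fold. The median length of these H3K4me3 peaks was 3022 bp, against 2498 bp over all marked genes. The same H3K4me3 peak differed between pools by 1.21-fold at the median. At MMP16 a single peak of pool 1, of 36.3-fold, stood against 2 peaks of pool 2, of 42.5- and 13.3-fold, and the weaker was the one matched, so its mean is understated. A matched peak of pool 2 could also lie beyond 1 kb. At ADAMTS5 the matched one had 30.2-fold, while the pool 2 peak within 1 kb had 9.75-fold.

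The strongest H3K4me3 peaks belonged to TIMP3, ADAM9, ADAMTS9, ADAM10 and ADAM17. TIMP3 had 82.2- and 85.8-fold in pools 1 and 2, ADAM9 had 80.5- and 83.6-fold, ADAMTS9 had 71.2- and 90.04-fold, ADAM10 had 70.9- and 86.0-fold and ADAM17 had 70.8- and 85.1-fold. Of these, ADAM10 also had the strongest H3K27ac of all 51 genes, 55.3- and 56.4-fold. MMP2, second in level, had a moderate H3K4me3 peak of 26.6- and 36.8-fold with H3K27ac of 41.0- and 32.5-fold, and MMP11 was similar, with 28.0- and 40.8-fold H3K4me3 and 46.5- and 33.8-fold H3K27ac. ADAMTS4 had the longest H3K4me3 peak, 12505 bp, longer than 97.4% of all peaks at gene starts.

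The marked genes of weakest H3K4me3 were MMP17, with 3.08- and 3.42-fold, ADAM2, with 3.95- and 3.19-fold, and MMP9, with 6.54- and 10.2-fold. Across the 41 marked genes the H3K4me3 enrichment and the mean level had a rank correlation of 0.66, and H3K27ac and the mean level of 0.71. Over all genes with the same marks these were 0.54 (14682 genes) and 0.53 (14371 genes). These are descriptions across genes, which share the same 3 libraries and 2 pools and are not replicates.

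**Figure D2:**
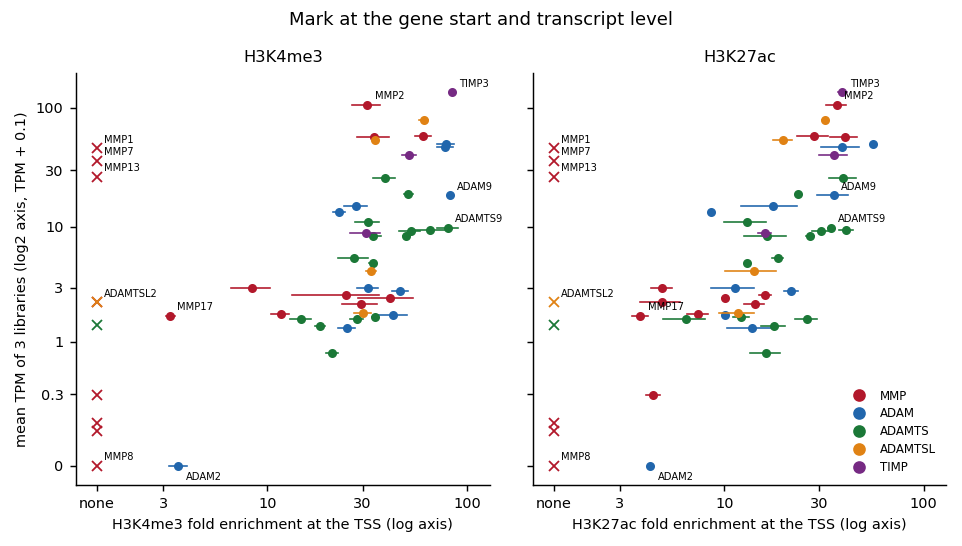
Fold enrichment over input at the TSS (x axis, log) against mean TPM of 3 libraries (y axis, log2 after adding 0.1), for H3K4me3 on the left and H3K27ac on the right. Points are the mean of 2 pools, lines join the pools, colours are the families and crosses are genes without a peak at the TSS. MMP1, MMP7 and MMP13 lie between 26.3 and 46.0 TPM with no peak of either mark, while TIMP3 is at the upper right of both.

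MMP1, MMP7 and MMP13 were over 10 TPM in all libraries with no H3K4me3 at the TSS, which makes 3 of 17 genes at that level, where 8.01% of all such genes lacked it. They had no H3K27ac there either. No peak of either pool lay within 1 kb of the 3 gene starts in the full lists, which go down to an unadjusted p of 0.01. The nearest reproducible H3K4me3 peak was 24.6 kb upstream of MMP1, with 3.24- and 3.91-fold, 73.2 kb downstream of the MMP7 start, with 34.4- and 41.3-fold, and 115 kb upstream of MMP13, with 82.3- and 100.95-fold. The nearest H3K27ac peak was 69.5 kb downstream for MMP1, 18.9 kb upstream for MMP7 and 39.5 kb upstream for MMP13, with at most 6.0-fold. Of the 7632 genes over 10 TPM in all libraries, 180 (2.36%) had no reproducible peak of either mark within 10 kb of the start, and these 3 were among them. Gene starts come from Tasmanian devil models moved to the dunnart assembly, and whether the dunnart transcripts begin elsewhere was not tested.

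These genes are neighbours. MMP13, MMP1, MMP8, MMP27, MMP20 and MMP7 lie in this order on the plus strand of scaffold 00130 of the study's own assembly, MMP13 at 1517917 to 1529237, MMP1 at 1761690 to 1769109 and MMP7 at 2055922 to 2072467. The stretch from MMP13 to MMP7 spans 555 kb and holds 8 gene models, of which 2 have no symbol and averaged 1.03 and 1.02 TPM. It held 4 reproducible H3K4me3 peaks, at most 7.50-fold in a pool, and 5 H3K27ac peaks, at most 6.0-fold. Over all scaffolds, measured to the last peak or gene, there were 38.2 H3K4me3 and 52.6 H3K27ac peaks per Mb. MMP1 and MMP8 start 43.4 kb apart and MMP8 and MMP27 23.2 kb apart, with levels of 46.0 TPM, 0 and 0.09 TPM on average. Single libraries weigh on these means: that of MMP1 was 26.4 TPM without FP3, and that of MMP27 0.024 TPM without FP2. The counting options that the paper lists include none for reads that fit several places. Whether such reads of similar MMP genes were left out was not tested.

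**Figure D3:**
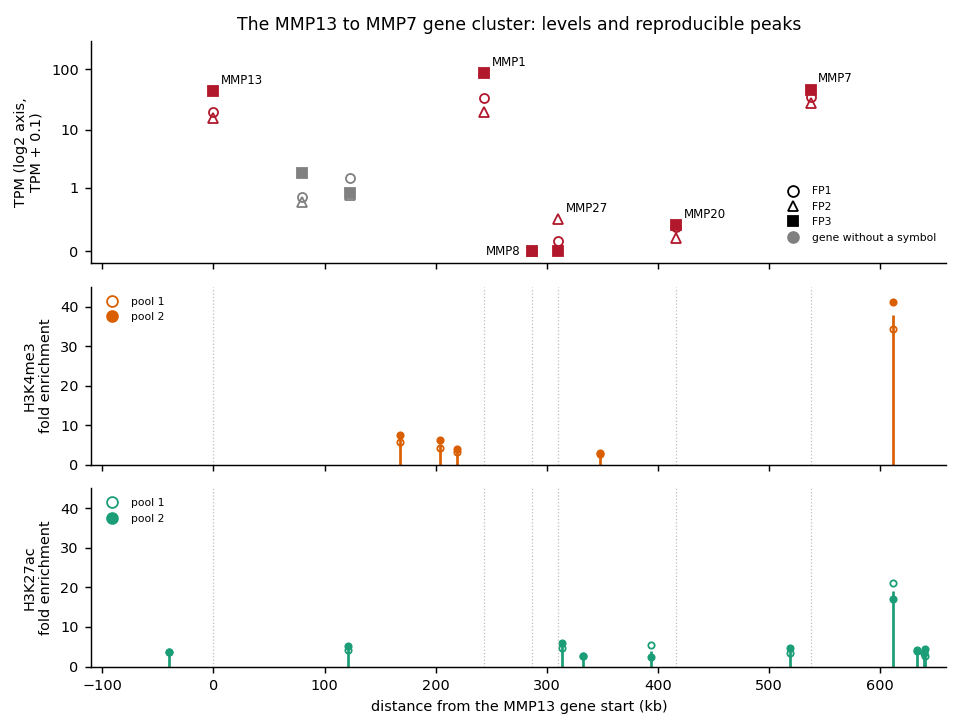
The MMP13 to MMP7 cluster, with distance from the MMP13 gene start in kb on the x axis. The top panel gives TPM in the 3 libraries (log2 axis after adding 0.1; red, MMP genes; grey, genes without a symbol), and the lower panels the fold enrichment over input of reproducible H3K4me3 and H3K27ac peaks in both pools (dotted lines, MMP gene starts). MMP13, MMP1 and MMP7 are over 10 TPM in each library, while peaks inside the cluster stay at or under 7.50-fold and the first strong ones stand beyond MMP7.

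The other 7 genes without H3K4me3 at the TSS were MMP8, MMP20, MMP21, MMP27, MMP19, ADAMTS13 and ADAMTSL2, with mean levels of 0 to 2.28 TPM. MMP19 and MMP21 had weak H3K27ac there, of 3.79- and 6.0-fold and of 4.76- and 4.03-fold. At MMP21 the pool 2 H3K27ac peak within 1 kb had 7.59-fold, and another one was matched. In the full lists MMP21 also had H3K4me3 peaks within 1 kb, of 4.67- and 4.24-fold in pools 1 and 2. These did not count as reproducible. ADAMTS13, the protease of von Willebrand factor, had its nearest H3K4me3 peak 5.25 kb upstream, of 67.8- and 78.4-fold. ADAMTSL2 had 18 H3K4me3 and 24 H3K27ac peaks inside its 90.3 kb model, which encloses the muscle gene MYMK on the opposite strand, itself at 67.0 TPM on average. Counting used strand, so reads of MYMK were kept apart from those of ADAMTSL2 as far as the library marks strand.

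The reverse case also occurred. Of the 10 genes not over 1 TPM in all libraries, 6 had H3K4me3 at the TSS, where 41% of all such genes and 60.5% of those with a symbol had it, so the share was close to that of genes with a symbol. ADAMTS18 had 35.9- and 33.3-fold with 1.61, 2.41 and 0.98 TPM, ADAMTSL3 had 33.0- and 27.2-fold and ADAM11 had 22.7- and 27.5-fold. These 3 were each over 1 TPM in at least one library. The others were ADAMTS12, MMP25 and ADAM2.

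H3K27ac peaks that share no base with H3K4me3 are candidate enhancers, and those over 1 kb and up to 100 kb from a gene start were counted around each gene. At least 1 such peak was present for 49 of the 51 genes, where 91.8% of all genes had one. The median was 6 peaks per gene for the 51 genes and 5 for all genes, and 19 against 12 when H3K27ac peaks of any kind were counted. Genes with a symbol had medians of 6 and 15. The number varied widely: 5 genes had at least 20, 19 had at most 2, and MMP16 and ADAMTS16 had 0. The number had a rank correlation of 0.14 with the mean level across the 51 genes and of 0.21 across all 21692 genes with counts.

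The most were around ADAMTS14 with 29, ADAMTS10 with 28, TIMP3 with 27, ADAMTSL2 with 24 and MMP15 with 21. Their surroundings differ: TIMP3 had no other gene start within 100 kb, ADAMTS14 had 1, ADAMTS10 had 2, and ADAMTSL2 and MMP15 had 5 each. When each peak was given to the nearest gene start instead, up to 1 Mb away, TIMP3 received 30 and ADAMTS14 18, but MMP15 5, ADAMTSL2 3 and ADAMTS10 2. By that count ADAM12 came first, with 39 peaks, followed by TIMP3, ADAMTS15 with 28, ADAMTS9 with 25 and ADAMTS2 with 20. ADAM12 had 35 of the H3K27ac-only peaks inside its own 346 kb model, at a level of 2.83 TPM.

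At the other end, ADAM17 had 1 and ADAM10 had 3 H3K27ac-only peaks within 100 kb, though both were over 30 TPM in every library with strong marks at the TSS. MMP11 had 1 such peak yet 43 H3K27ac peaks of any kind, with 6 other gene starts in the same window.

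**Figure D4:**
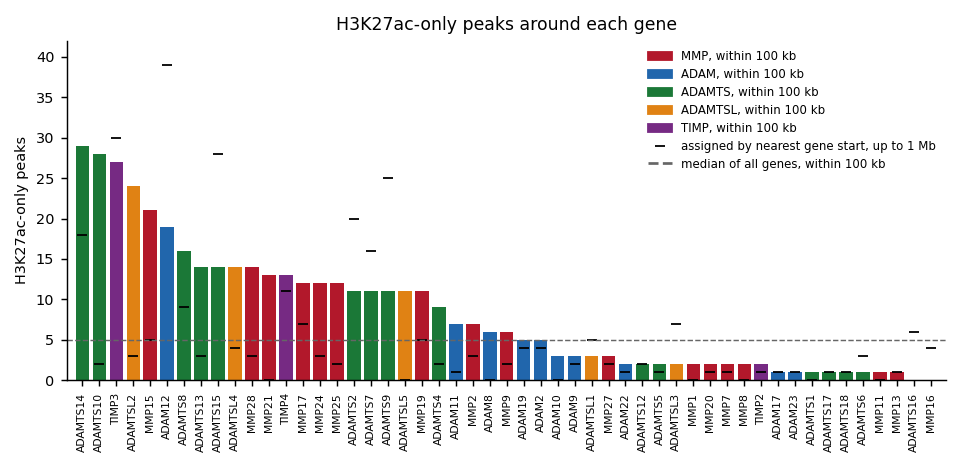
Number of H3K27ac-only peaks around each of the 51 genes. Bars count peaks over 1 kb and up to 100 kb from the TSS, coloured by family, the black dashes count peaks assigned to the gene by the nearest gene start up to 1 Mb, and the dashed line is the median of all genes, 5. ADAMTS14, ADAMTS10 and TIMP3 have the tallest bars, and ADAM12 the highest dash, 39.

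In strength, the H3K27ac-only peak that stood out was that of ADAMTS2, 60.2 kb downstream of its start and inside its 447 kb model, with 25.6-fold in pool 1 and 21.1-fold in pool 2. This is in the range of H3K27ac at the ADAMTS2 start itself, 27.6- and 33.8-fold. At TIMP3 the strongest was 10.5 kb upstream, with 17.02- and 10.1-fold, and at ADAMTSL4 it was 25.0 kb upstream, with 10.5- and 7.56-fold. Around MMP2 no such peak exceeded 7.59-fold in a pool. Values for ADAMTS4, 3.38- and 41.6-fold, and MMP25, 4.13- and 23.2-fold, differed greatly between pools, and the ADAMTS4 peak lies beside a strong H3K4me3 peak of another gene.

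**Figure D5:**
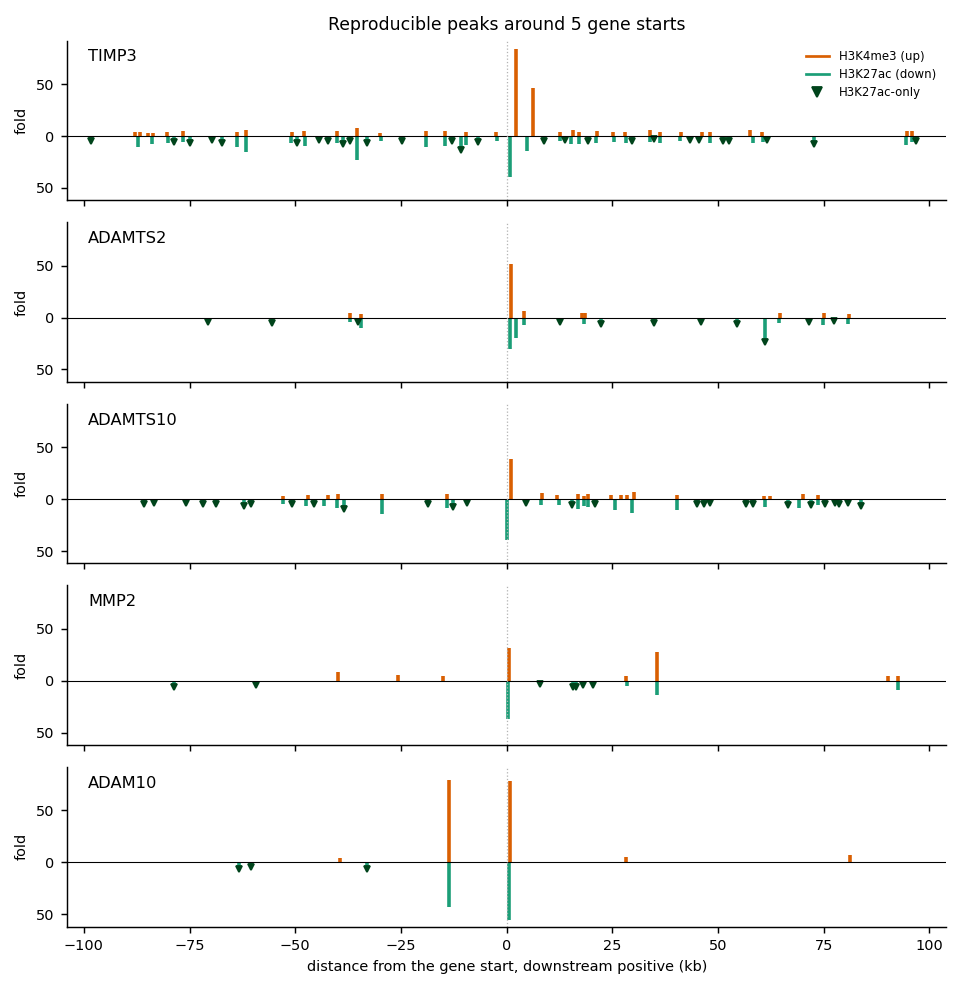
Reproducible peaks within 100 kb of the starts of TIMP3, ADAMTS2, ADAMTS10, MMP2 and ADAM10. The x axis is the distance from the gene start in kb with downstream positive, bars give fold enrichment as the mean of 2 pools, upward for H3K4me3 and downward for H3K27ac, and triangles mark H3K27ac-only peaks. TIMP3 and ADAMTS10 are lined with 27 and 28 H3K27ac-only peaks, ADAM10 has 3, and ADAMTS2 has its strong peak at 60.2 kb.

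Among the members, 1 pair other than those of the MMP cluster started less than 100 kb apart. ADAMTS15 and ADAMTS8, both proteoglycanases, are divergent with starts 33.0 kb apart and no gene start between them. Both carried H3K4me3, with 35.2- and 32.3-fold at ADAMTS15 and 47.8- and 51.04-fold at ADAMTS8. Within 100 kb of both starts lay 12 H3K27ac-only peaks, and none lay between them. ADAMTS15 had 4.48, 6.56 and 3.81 TPM and ADAMTS8 7.83, 9.68 and 7.58 TPM, so both were highest in FP2 and lowest in FP3, and ADAMTS8 was above ADAMTS15 in each library.

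The 3 libraries differed beyond single genes. Of the 41 genes over 1 TPM, 28 were highest in FP2, 7 in FP1 and 6 in FP3, and over all genes at that level the shares were 61.2%, 27.0% and 11.8%. After TMM scaling, which sets the libraries against each other by the bulk of genes, these were 26, 6 and 9 of the 41, and 48.4%, 26.6% and 25.0% of all genes. MMP1, with a spread (SD over mean) of 75.3%, was more variable than 99.6% of the 1149 expressed genes within 1.2-fold of its level. TIMP2 at 49.8%, MMP13 at 57.4% and MMP2 at 42.8% were above 97.7%, 96.7% and 95.4% of genes of like level. The marker lists moved too: osteoblast markers (RUNX2, SP7 and IBSP) summed to 102, 269 and 33.7 TPM in FP1, FP2 and FP3, cartilage markers to 60.9, 147 and 59.6 TPM, facial mesenchyme markers to 1697, 2272 and 1183 TPM and skeletal muscle markers to 4348, 3497 and 4818 TPM. Epithelium markers summed to 187, 252 and 234 TPM, neuron markers to 49.6, 60.8 and 64.7 TPM, endothelium markers to 90.2, 69.8 and 62.1 TPM, macrophage markers to 14.9, 19.2 and 8.93 TPM and osteoclast markers to 114, 112 and 83.1 TPM. Sums rest on their most abundant genes, and members of a list did not always move together. In the mesenchyme list COL1A1 was highest in FP2. TWIST1, with 359, 285 and 217 TPM, was highest in FP1, and MSX1, with 108, 83.9 and 109 TPM, was lowest in FP2. MMP2 and TIMP2 were highest in FP2, as were the summed osteoblast, cartilage, mesenchyme, epithelium and macrophage lists. The macrophage markers were split: CSF1R, with 4.19, 9.84 and 3.08 TPM, was highest in FP2, and CD68, with 9.90, 8.52 and 5.40 TPM, in FP1. MMP1, MMP7 and MMP13 were highest in FP3, as were the summed muscle and neuron lists. Most of the muscle sum is ACTA1, and MYOD1, MYOG and ACTA1 were each highest in FP3. The neuron sum rests on TUBB3, which was highest in FP3. SNAP25 was highest in FP2, and ELAVL4 was highest in FP1 and lowest in FP3. MMP1, MMP7 and MMP13 were lowest in FP2, where the summed epithelium list was highest. In that list EPCAM and CDH1 were highest in FP2, but KRT18, with 103, 85.6 and 81.9 TPM, was highest in FP1. The part of cell composition in these levels was not tested.

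Markers of cell types in which some of these genes are known were read as well. The tooth enamel genes AMELX and ENAM had 0 counts and AMBN at most 0.59 TPM, as MMP20 was near 0. Of the sperm markers ZPBP had 0 counts and ACR and DDX4 stayed under 0.3 TPM, with ADAM2 at 0. Of the macrophage markers AIF1 had 0 counts and PTPRC at most 0.88 TPM, while CSF1R averaged 5.70 TPM and CD68 7.94 TPM. Of the osteoclast markers OCSTAMP had 0 counts and ATP6V0D2 at most 0.22 TPM, while ACP5 and CTSK averaged 49.3 and 53.6 TPM. MMP9 was at 3.01 TPM beside them.

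The genes these proteases work with were read from 7 lists with 78 genes, of which 71 had a row. Of these, 62 were over 1 TPM in all 3 libraries and 49 over 10 TPM, with a median of 32.7 TPM, and 64 had H3K4me3 at the TSS. Among all genes with a symbol, 75.3% were over 1 TPM, 49.3% over 10 TPM and 83.1% had H3K4me3, with a median of 12.8 TPM. The counts for single lists below are to be read beside these shares. Among activating proteases, FURIN, which activates MMP11 and other proenzymes, had 70.4, 109 and 75.3 TPM, and PCSK5 was under 1 TPM. Among other inhibitors, RECK, a membrane inhibitor of MMPs, had 17.1, 27.7 and 14.4 TPM, and A2M, which traps proteases in blood, had 0.92, 1.27 and 1.22 TPM. All 13 cofactors and receptors were over 1 TPM in every library, RHBDF1, a carrier of ADAM17, at 61.7 TPM and BSG, an inducer of MMPs, at 299 TPM on average. Of the shed membrane proteins, 14 of 14 were over 1 TPM, NOTCH2, a substrate of ADAM10, at 42.5 TPM.

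Matrix substrates differed in level by orders of magnitude. COL1A1, a substrate of collagenases and of ADAMTS2, had 1188, 1827 and 821 TPM, and COL1A2 averaged 1744 TPM. ACAN, the aggrecan gene, had 1.00, 6.10 and 0.95 TPM, and COMP, the substrate of ADAMTS7, had 0.98, 6.77 and 2.54 TPM. Both were highest in FP2, as MMP2 and TIMP2 were. Of the microfibril partners of ADAMTS10 and the ADAMTS-like proteins, FBN1 averaged 28.8 TPM and 6 of 7 were over 1 TPM in every library. BMP1, the procollagen C-proteinase, averaged 94.8 ± 19.2 TPM (SD, n = 3), where ADAMTS2, an N-proteinase, averaged 9.12 ± 4.68 TPM.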

How the data were processed

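The members and gene lists were chosen with earlier results of these data known. For RNA, the authors trimmed reads (Trimmomatic 0.39), aligned them (HISAT2 2.21) to their dunnart assembly and made counts over exons with featureCounts (Subread 2.0.1, reversely stranded). Gene models were moved from the Tasmanian devil with Liftoff. The deposited table gives raw counts and exon length. For ChIP-seq, the authors trimmed (cutadapt 1.9.1), aligned (Bowtie2 2.3.5.1), removed duplicates (Picard 2.23.1) and called peaks per pool against its input (MACS2 2.1.1). The deposited lists give the fold enrichment (a ratio), the −log10 of the p-value and q-value, and a display score that was not used here. They give no depth, so the reads behind a peak are unknown.

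TPM was computed over 21692 genes, and 11 genes broken over 2 lines were used for their start only. The outermost exon end was taken as the TSS. The pools hold 26 and 27 heads per the labels, while the methods of the study give another number. Pools 1 and 2 and the libraries are separate pools of young. Within a ChIP pool, both marks and the input come from the same young, so the marks are paired. P-values were not computed, since there are no groups. Named genes are the 6 highest MMP, ADAM and ADAMTS genes and the 3 highest ADAMTSL genes by mean TPM, all TIMPs, the 5 of strongest H3K4me3, the 5 with most H3K27ac-only peaks, genes over 10 TPM without H3K4me3, genes not over 1 TPM with at least 20-fold H3K4me3 in both pools, and pairs under 100 kb apart. Other genes were named as members of their family, or as members of the lists, after their values were seen. Alternatives changed the thresholds, windows, overlap rule, pools and libraries. Python 3.11.15, pandas 2.3.3, scipy 1.17.1, bedtools 2.31.1 and R 4.3.3 with edgeR 4.0.16 (TMM factors only) were used. On simulated data TPM was within 0.2 log2 for 199 of 200 changed genes among 21692, and marks at the TSS and peaks within 100 kb were right for 3000 of 3000 genes.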

Additional observations from a re-analysis of the deposited data

How the results depend on the processing

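The counts of genes over 1 TPM ranged from 28 at a threshold of 2 TPM to 48 with no threshold, and the count over 10 TPM was 17 with TMM factors. When each library was left out in turn, the count over 1 TPM was between 41 and 44 and that over 10 TPM between 17 and 18. The counts with H3K4me3, H3K27ac or both at the TSS were within 1.5 times the values given, under every window, q threshold and overlap rule tried, from 33 genes with both marks when 50% of both lengths had to be shared to 46 genes with H3K27ac at 3 kb. Numbers of peaks depended on the window: the median number of H3K27ac-only peaks was 10 within 200 kb and 2 by the nearest gene start, and that of H3K27ac peaks was 7 within 50 kb, 11 at q under 0.0001 and 5 by the nearest gene start. Of 63 such values 58 were within 1.5 times the main one and 5 were not. The rank correlation between the number of H3K27ac-only peaks and level was 0.10 within 50 kb and 0.21 within 200 kb. Of 132 values of the mean TPM of named genes under other scaling or without a library, 2 differed by over 1.5 times from the mean of 3: MMP1 at 26.4 TPM without FP3, against 46.0 TPM, and MMP27 at 0.024 TPM without FP2, against 0.09 TPM. With 3 libraries and 2 pools per mark the spread is known only roughly, and levels near 0 are limited by the count depth. No paired analysis was possible because there are no groups to compare, so no test was run.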

Other observations

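Of the 49 partner genes over 10 TPM in all 3 libraries, COL3A1 and TNC had no H3K4me3 within 1 kb of the annotated start. COL3A1, a fibrillar collagen of soft tissue, had 699, 1328 and 625 TPM in FP1, FP2 and FP3, with its nearest reproducible H3K4me3 peak 41141 bp and its nearest H3K27ac peak 41104 bp from the start. TNC, the matrix protein tenascin C, had 38.7, 80.0 and 31.9 TPM, with H3K4me3 no nearer than 40463 bp but H3K27ac at the start, of 5.47- and 4.63-fold in pools 1 and 2. COL3A1 was thus, like MMP1, MMP7 and MMP13, without a peak of either mark within 10 kb of the annotated start. These genes were singled out after their values were seen, and whether their annotated starts are those used in the dunnart was not tested.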
